A study of Danio rerio with 6 samples.

Results

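Nuclear genes for subunits of oxidative phosphorylation were measured in the kidneys of adult zebrafish with and without functional runx1, a gene for a transcription factor of blood development. A gene was included when its symbol, with case ignored, began with ndufa, ndufb, ndufc, ndufs or ndufv (complex I), sdh (complex II), uqcr (complex III), cox4 to cox8 (complex IV), or atp5f, atp5m or atp5p (complex V). This gave 102 of the 32266 genes in the files, of which 26433 carried a symbol. There were 42 genes of complex I, 5 of complex II, 8 of complex III, 18 of complex IV and 18 of complex V. The remaining 11 were assembly factors of complexes I and II, whose symbols (ndufaf and sdhaf) share the prefixes; they were kept apart from the subunits. The choice used symbols alone and no measured value. Subunit genes without a matching symbol were left out, so the sum of a complex covers only the genes that the rule chose.

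The fish were of the EK strain and about 2.5 months old. Wild type fish were compared with siblings homozygous for the runx1 allele del25 (hg97), called runx1 null below. Each library was made from the whole dissected kidneys of a pool of 3 kidneys, with 3 pools for each genotype. The pools are the replicates, and the labels do not say whether pools of the same number in the 2 genotypes were prepared together. The labels say neither which sex the fish were nor how many fish gave the kidneys of a pool.

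Oxidative phosphorylation takes place in the inner mitochondrial membrane. Complexes I and II pass electrons from NADH and succinate to ubiquinone, complex III passes them on to cytochrome c, and complex IV passes them to oxygen. Complexes I, III and IV pump protons, and complex V, the ATP synthase, uses the proton gradient to make ATP. All subunits of complex II are encoded in the nucleus, and the other complexes also hold subunits encoded in mitochondrial DNA. In fish the kidney is both an organ of salt and solute transport and the adult site of blood formation. Tubule cells are rich in mitochondria, erythroid precursors need mitochondria to make heme, and the nucleated red blood cells of fish keep mitochondria, so both parts of the organ can contribute to these transcripts. In bulk tissue, fewer cells of a type and less RNA per cell cannot be told apart.

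The libraries held between 16147770 and 30577328 expected counts and between 22349 and 24493 genes with a count. The mutated gene, runx1, was counted 8, 5 and 7 times in wild type pools 1 to 3, against 0, 5 and 5 times in runx1 null. These counts were too few to check the labels, and a count per gene does not show which allele it came from. Levels are given as CPM, the count as a share of the library size after TMM scaling, a correction for differences in RNA composition. CPM is not divided by gene length, so each gene is compared between pools and not with other genes. Wild type pool 1 stood apart: its TMM factor was 0.772 against 1.01 to 1.08 in the other libraries. Its summed CPM of 18 kidney tubule markers was 487, against 1687 to 4175 in the other pools, and that of 15 erythroid markers was 142686, against 65423 to 83138. Pools also differed in transcripts of neighbouring tissues. The summed CPM of 10 liver markers was 138, 5352 and 7140 in the wild type pools and 20389.8, 1700.2 and 29655 in the runx1 null pools. That of 5 pancreas markers was 217 in runx1 null pool 3 and 6.91 to 18.01 elsewhere.

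Together the 91 subunit genes had nearly the same level in 5 of the 6 pools after TMM scaling. Their summed CPM was 6159, 6240.5 and 6471 in the wild type pools and 5953, 6650.1 and 8928 in the runx1 null pools. Runx1 null pool 3 was the high one, and the ranges of the groups overlapped. The mean was 6290.1 ± 162 CPM in wild type against 7177 ± 1556 CPM in runx1 null (SD, n = 3), a ratio of 1.14. On this scale wild type pool 2 had 6.59 times the tubule marker level of wild type pool 1 and 0.549 times its erythroid marker level, and 1.01 times its subunit level. That last ratio joined complexes on both sides of 1. It was 0.847 for complex I, 0.933 for II, 0.981 for III, 1.22 for IV and 1.09 for V. The closeness of the sums depends on the scaling. Without TMM, the 102 genes held 0.484%, 0.672% and 0.707% of the counts in the wild type libraries, lowest in pool 1. In runx1 null they held 0.627%, 0.726% and 0.915%.

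None of the genes passed the test between genotypes. Of the 102 genes, 100 passed the filter on low counts. The exceptions were ndufa4l2b, with a count of 0 in all libraries, and a second row of the symbol SDHD (ENSDARG00000055712), at 0.0741 to 0.777 CPM. With edgeR's quasi-likelihood test and Benjamini-Hochberg adjustment over all 18864 tested genes, 0 of the 100 had an adjusted p under 0.05, and the smallest was 0.811. Over all tested genes 0% were called, with a smallest adjusted p of 0.599. At an unadjusted p under 0.05 there was 1 of the 100, UQCR10, which was higher in runx1 null, against 2.57% of all tested genes higher and 2.66% lower, or 5.23% in either direction. DESeq2 called 0 of the 100 and 0.561% of all genes it tested (105 of 18720).

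The fold changes leaned to the positive side. The estimate was higher in runx1 null for 75 of the 100 genes, against 47.9% of all tested genes, and lower for 25, against 52.1% of all tested genes. The median log2 fold change was 0.19, and that of all tested genes was -0.03. By complex, the estimate was higher for 25 of 41 genes of complex I (median 0.11), 3 of 4 of complex II (0.07), 8 of 8 of complex III (0.32), 15 of 18 of complex IV (0.33), 16 of 18 of complex V (0.21) and 8 of 11 assembly factors (0.09). All 3 runx1 null pools lay above all 3 wild type pools for 8 genes (NDUFA10, NDUFB5, NDUFB11, ndufab1b, UQCR10, UQCRH, cox6c and atp5meb), against 6.24% of all tested genes. The reverse held for 0 of the 100, also against 6.24%.

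**Figure D1:**
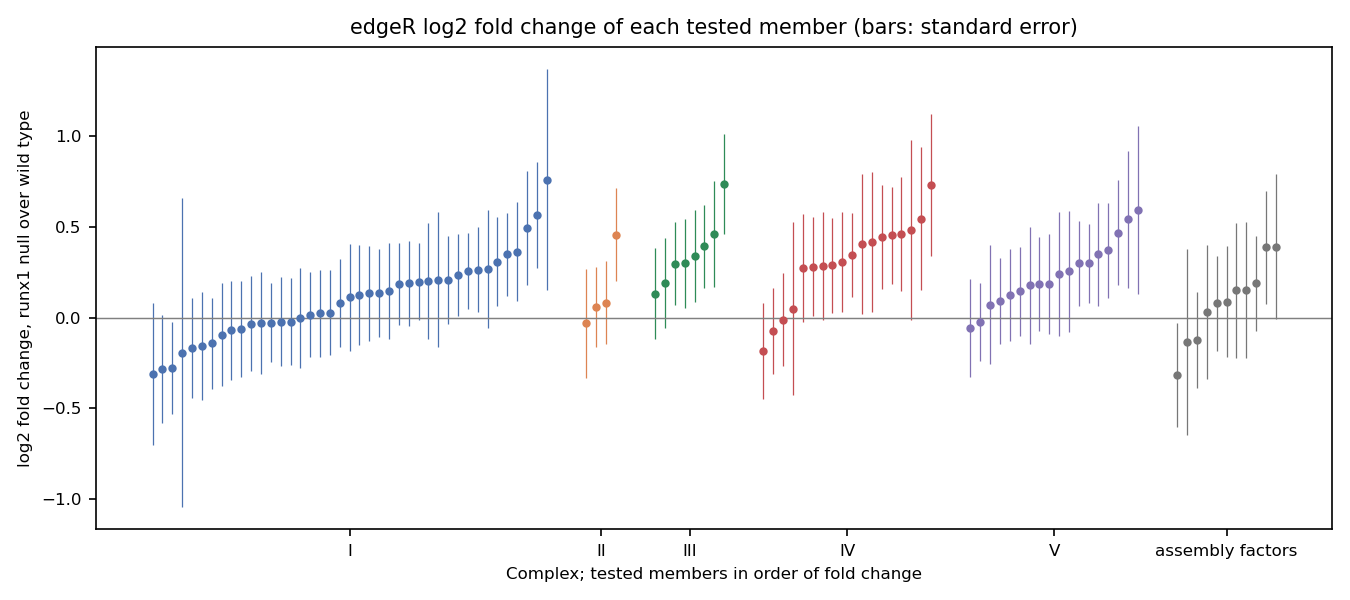
log2 fold change of runx1 null over wild type for each of the 100 tested genes, ordered by size within each complex; points are edgeR estimates and bars are 1 standard error either way. The 8 genes of complex III all lie above 0, the 41 of complex I lie on both sides, and none passed the test.

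A single library carried much of this lean. Runx1 null pool 3 was the highest of the 6 pools for 68 of the 100 genes, while it was the highest for 19.3% of all tested genes. Without that pool, 53 of 101 genes had an estimate above 0 and the median log2 fold change was 0.009. Over all tested genes of that fit, 46.1% were above 0 and the median was -0.0503. Complexes I to V then had medians of -0.0544, 0.055, 0.14, 0.0438 and -0.0283. Runx1 null pool 1 and wild type pool 1 were each the lowest pool for 34 of the 100 genes, against 15.9% and 36.6% of all tested genes. Without runx1 null pool 1, 90 of 100 had an estimate above 0 and the median was 0.29. Without wild type pool 1 the estimate was above 0 for 86 of 101 genes and the median was 0.19. With wild type pool 1 and runx1 null pool 3 both left out, it was above 0 for 51 of 100 genes and the median was 0.0034. Over all tested genes, the last 3 fits had 46.8%, 53.0% and 49.0% above 0, with medians of -0.0433, 0.0341 and -0.0127. Runx1 null pool 3 also had the highest summed CPM of the tubule, liver and pancreas markers given above. By mean log2 CPM, its tubule markers were close to those of wild type pool 2, at 6.37 against 6.31. Wild type pool 2 was the highest for 8 of the 18 tubule markers and runx1 null pool 3 for 6. The part of these tissues in the result was not tested.

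**Figure D2:**
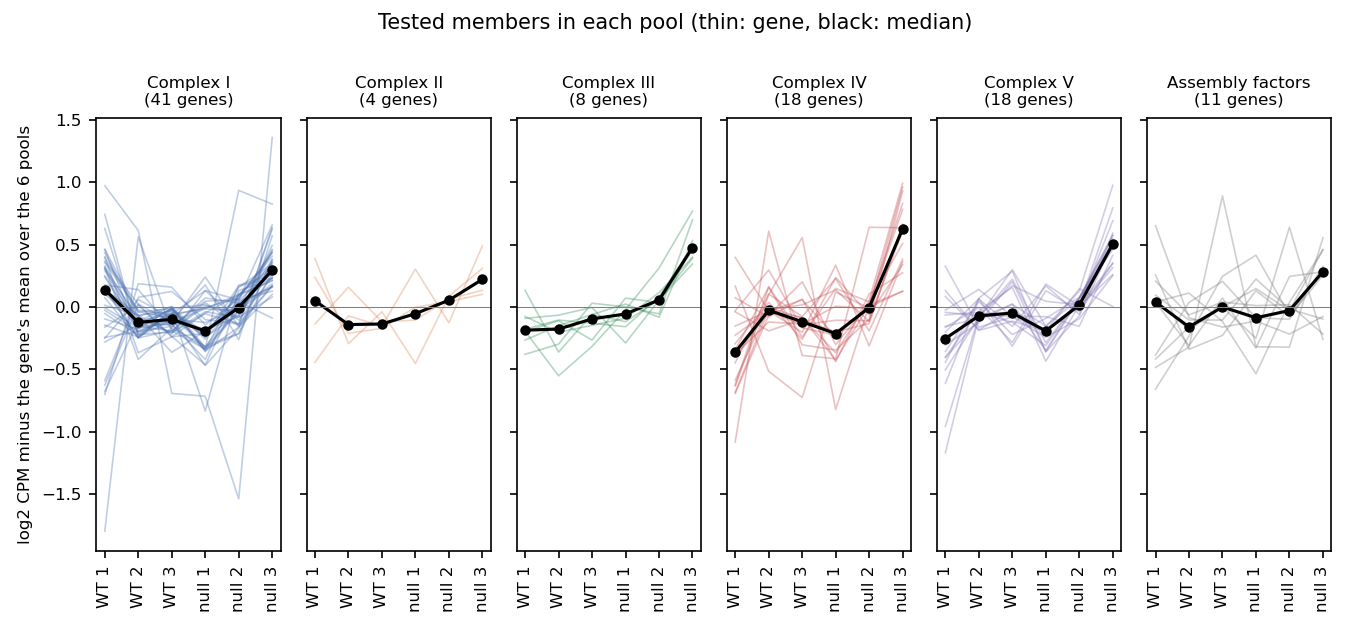
log2 CPM of each tested gene minus its own mean over the 6 pools, by complex; thin lines are genes, black points are the median of the complex in a pool, WT is wild type and null is runx1 null. On the TMM scale the medians of all complexes are highest in runx1 null pool 3. In wild type pool 1 those of complexes I and II lie above 0, and those of complexes III, IV and V lie below it.

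The complexes differed in where they placed wild type pool 1, the pool with few tubule and many erythroid transcripts. That pool was the highest of all for 16 of the 41 tested genes of complex I and for 2 of 4 of complex II, but for 0 of 8 of complex III, 1 of 18 of complex IV and 1 of 18 of complex V. It was the lowest for 8 genes of complex I, 2 of complex II, 3 of complex III, 10 of complex IV and 7 of complex V, so that complex II was split evenly. Over all tested genes it was the highest for 30.4% and the lowest for 36.6%. The counts are on the TMM scale, where the low factor of this pool, 0.772, raises all of its CPM against the other pools. They describe 1 library and were given no test.

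Complex I, the NADH dehydrogenase, had a summed CPM of 2037, 1725 and 1724 in the wild type pools and 1681, 1879 and 2284 in the runx1 null pools. The groups overlapped, with the highest value in runx1 null pool 3 and the next in wild type pool 1. The place of wild type pool 1 depends on the scaling, and without TMM it has the lowest sum. The means were 1829 ± 180 and 1948 ± 307 CPM (SD, n = 3), a ratio of 1.07. The core iron-sulfur subunit NDUFS1 had close means in the genotypes, at 107 ± 16.1 CPM in wild type against 105 ± 22.4 in runx1 null (SD, n = 3). NDUFV1, which binds the flavin, was low in wild type pool 1, with 41.3, 76.5 and 74.98 CPM in wild type compared with 60.8, 70.4 and 90.6 CPM in runx1 null. NDUFS8, another iron-sulfur subunit, was instead highest in wild type pool 1, with 161, 113 and 92.4 CPM in wild type against 104, 121 and 133 in runx1 null.

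Among the accessory subunits of complex I, ndufab1b, a gene for the mitochondrial acyl carrier protein, had the smallest unadjusted p. It was at 14.1, 20.9 and 21.7 CPM in wild type against 24.7, 23.5 and 35.6 CPM in runx1 null, so the groups did not overlap. Its log2 fold change was 0.56 (SE 0.29, adjusted p = 0.811). The other gene of this protein, NDUFAB1, was at 47.9 ± 7.35 CPM in wild type compared with 54.6 ± 7.56 in runx1 null (SD, n = 3), and its groups overlapped. NDUFB11, a membrane-arm subunit, was at 24.5, 25.3 and 27.6 CPM in wild type against 28.9, 30.4 and 39.3 in runx1 null, with a log2 fold change of 0.35 (SE 0.23). The groups were separate, with wild type pool 3 and runx1 null pool 1 nearest to each other. ndufa7 was at 10.6, 16.7 and 15.1 CPM in wild type against 19.4, 14.8 and 25.6 in runx1 null (0.49, SE 0.31), and here runx1 null pool 2 fell among the wild type pools.

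The lowest estimates of complex I were those of NDUFA6, NDUFB1 and NDUFS6. NDUFA6 was at 55.8, 28.2 and 32.8 CPM in wild type compared with 18.7, 36.5 and 39.0 in runx1 null, a log2 fold change of -0.31 (SE 0.39). NDUFB1 was at 37.9 CPM in wild type pool 1 and between 19.6 and 25.2 in the other 5 pools (-0.28, SE 0.30). In both, wild type pool 1 was the highest pool. ndufa9b, which RefSeq lists as a pseudogene, was at 1.88 to 3.07 CPM.

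Complex II, the succinate dehydrogenase, is also an enzyme of the citric acid cycle. Its summed CPM was 298, 278 and 265 in wild type against 271, 295 and 335 in runx1 null, with overlapping groups and means of 280.1 ± 16.5 and 300.3 ± 32.1 CPM (SD, n = 3). The catalytic flavoprotein SDHA varied least of all 100 tested genes in the ratio of highest to lowest pool, 1.23. It was at 106, 130.1 and 107 CPM in wild type against 108, 122 and 128 in runx1 null (log2 fold change 0.06, SE 0.22, adjusted p = 0.949). The membrane anchor SDHC was at 76.8, 56.3 and 57.9 CPM in wild type compared with 65.1, 67.2 and 69.9 in runx1 null (0.08, SE 0.23). The other anchor, SDHD (ENSDARG00000030139), was at 29.5, 38.2 and 36.0 CPM in wild type against 49.5, 36.7 and 56.3 in runx1 null (0.46, SE 0.25). In SDHD the runx1 null pools 1 and 3 lay above all wild type pools, and pool 2 lay among them. The iron-sulfur subunit SDHB was at 67.1 ± 16.4 CPM in wild type against 65.7 ± 16.8 in runx1 null.

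Complex III, the cytochrome bc1 complex, was the only one whose summed CPM did not overlap between the genotypes on the TMM scale. It was 554, 544 and 584 CPM in wild type compared with 599, 643 and 892 CPM in runx1 null. The nearest pools, wild type pool 3 and runx1 null pool 1, lay close together, and runx1 null pool 3 lay far above the others. The separation depends on the scaling. The TMM factors of the nearest pools were 1.08 and 1.04, and without TMM wild type pool 3 lies above runx1 null pool 1. The sums were given no test. The means were 561 ± 20.7 and 711 ± 158 CPM (SD, n = 3), a ratio of 1.27. UQCR10, a small accessory subunit, was at 35.7, 27.8 and 32.8 CPM in wild type against 40.2, 50.7 and 69.5 CPM in runx1 null. All runx1 null pools were above all wild type pools, with a log2 fold change of 0.74 (SE 0.28, unadjusted p = 0.0331 and adjusted p = 0.811 by edgeR). UQCRH, the hinge protein that helps cytochrome c to bind, was at 66.2, 70.3 and 63.2 CPM in wild type against 79.8, 77.8 and 105 in runx1 null, again without overlap (0.39, SE 0.23).

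The catalytic Rieske iron-sulfur protein UQCRFS1 was at 76.3, 80.8 and 101 CPM in wild type compared with 99.4, 95.6 and 161 in runx1 null (0.46, SE 0.29). The core protein UQCRC1 was at 97.4, 105 and 112 CPM in wild type against 119, 111 and 169 in runx1 null (0.34, SE 0.25). In both genes wild type pool 3 lay above runx1 null pool 2, and for UQCRFS1 it also lay above runx1 null pool 1. UQCRB, UQCRQ and the core protein genes UQCRC2 and uqcrc2a had log2 fold changes of 0.30, 0.30, 0.13 and 0.19. All 8 genes were highest in runx1 null pool 3.

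Complex IV, the cytochrome c oxidase, had a summed CPM of 901, 1103 and 998 in wild type against 1034, 1035 and 1544 in runx1 null. Wild type pool 2 lay above runx1 null pools 1 and 2. The means were 1000.5 ± 101 and 1204 ± 295 CPM (SD, n = 3), a ratio of 1.20. COX4I1, the largest of the nuclear-encoded subunits, was at 117, 172 and 152 CPM in wild type against 187, 140.1 and 209 in runx1 null (log2 fold change 0.28, SE 0.27, adjusted p = 0.813). cox6c was at 51.3, 61.5 and 60.7 CPM in wild type compared with 67.1, 66.1 and 104 in runx1 null, without overlap (0.45, SE 0.27). The lowest estimate was that of COX6A1 (ENSDARG00000054588), at 110.0, 81.7 and 78.7 CPM in wild type against 62.1, 84.4 and 91.1 in runx1 null (-0.19, SE 0.26). Its highest pool was wild type pool 1.

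Complex V, the ATP synthase, had a summed CPM of 2369, 2591 and 2901 in wild type against 2369, 2798 and 3873 in runx1 null. Runx1 null pool 1 lay level with the lowest wild type pool and runx1 null pool 3 was above all. The means were 2620.4 ± 267 and 3013 ± 775 CPM (SD, n = 3), a ratio of 1.15. The catalytic beta subunit ATP5F1B was at 510.2, 578 and 726 CPM in wild type against 491, 657 and 904 in runx1 null (log2 fold change 0.18, SE 0.32, adjusted p = 0.885). The alpha subunit ATP5F1A, which forms the same ring, was at 377 ± 92.7 CPM in wild type against 449.6 ± 136 in runx1 null (SD, n = 3). The stalk subunit ATP5PB was at 348 CPM in wild type pool 1 and 234 to 330.4 in the other pools, the opposite order in that pool from ATP5F1A, at 283 CPM there and 329 to 598 elsewhere. Among the small membrane subunits, atp5mj was at 37.9, 60.4 and 51.9 CPM in wild type compared with 65.1, 55.5 and 87.3 in runx1 null (0.47, SE 0.29). atp5md was at 37.8, 49.8 and 41.5 CPM in wild type against 45.4, 51.0 and 70.5 in runx1 null (0.37, SE 0.26). In both, 1 runx1 null pool lay among the wild type pools.

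The 11 assembly factors, which build complexes I and II but are not part of them, had a summed CPM of 110.3, 85.2 and 92.5 in wild type against 93.9, 91.5 and 103 in runx1 null. Their means were 96.0 ± 12.9 and 96.1 ± 6.07 CPM (SD, n = 3). NDUFAF1, a complex I assembly factor, was at 40.1 CPM in wild type pool 1 and 22.0 to 24.2 in the other 5 pools.

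**Figure D3:**
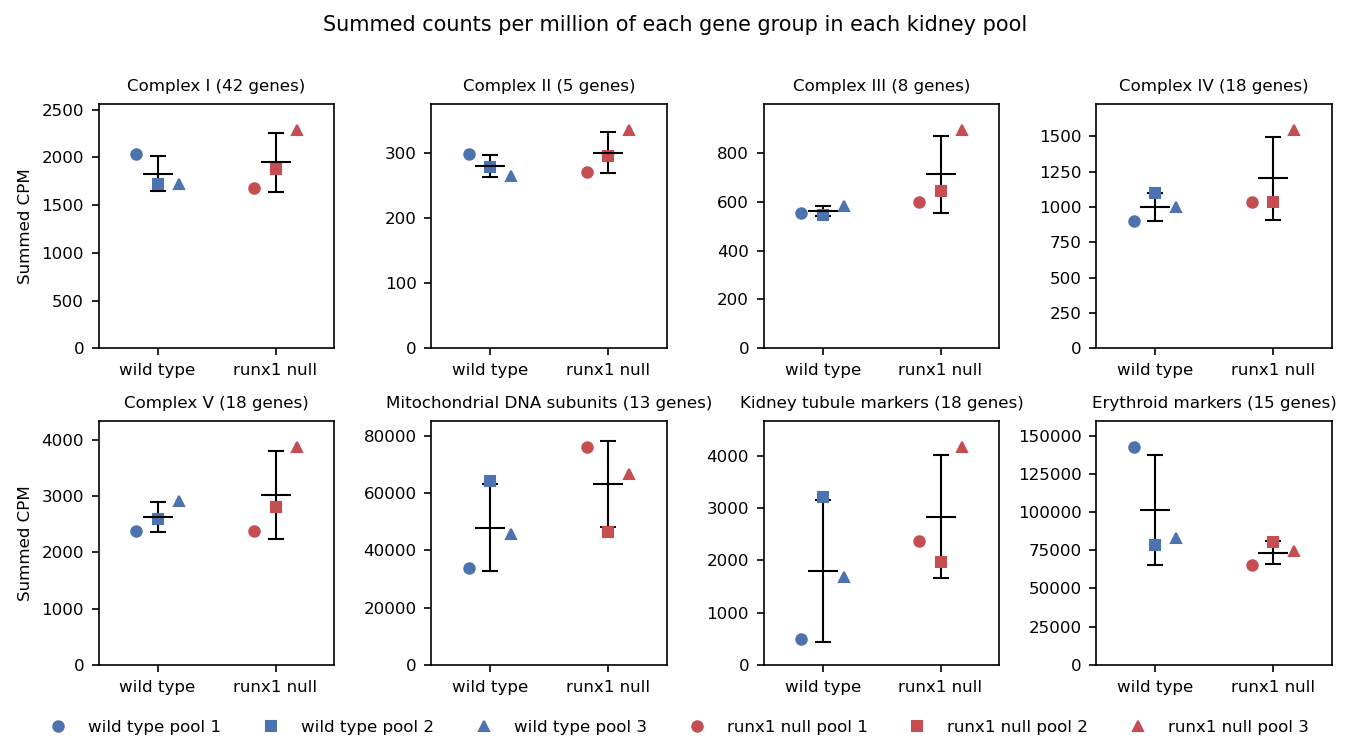
Summed CPM of the genes of each complex, of the 13 subunits encoded in mitochondrial DNA, and of the kidney tubule and erythroid markers, in each pool; points are pools, horizontal bars are means and whiskers are 1 SD either way (n = 3). On the TMM scale the complexes vary far less between pools than the tubule markers, which run from 487 in wild type pool 1 to 4175 in runx1 null pool 3.

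The subunit and assembly genes varied less between pools than the median gene on the TMM scale. The median SD of log2 CPM over the 6 pools was 0.272 for the 100 genes and 0.539 for all tested genes, whose lower quartile was 0.345. It was 0.251, 0.249, 0.259, 0.345 and 0.298 for complexes I to V. The genes were not matched for level in this comparison. The ratio of the highest to the lowest pool had a median of 1.71. It was under 1.5 for 23 genes and over 3 for 7. These 7 were NDUFA4L2, ndufa4b, atp5mc1, ATP5MC3, cox4i1l, COX4I2 and cox6a1 (ENSDARG00000022438), and all belong to families with more than 1 gene for the same subunit. How many of the 100 genes belong to such families was not counted. Other genes of the families of these 7 varied less, such as NDUFA4 (1.38), COX4I1 (1.78) and atp5mc3b (1.94).

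Those families, and the cox6b, cox7a and cox8 families, were followed as the ratio of paralogs within a pool, which does not depend on the scaling of the library. Other paralogs among the genes, such as UQCRC2 and uqcrc2a, were given no ratio. The ratios are compared between pools only, since the genes differ in length, and expected counts may divide reads between similar copies. Of 9 ratios, 3 did not overlap between the genotypes. No share over ratios of other gene pairs was computed to set beside this count. cox8b over cox8a, isoforms of the smallest subunit of complex IV, was 0.725, 0.997 and 1.04 in wild type compared with 1.42, 1.13 and 1.43 in runx1 null. The means were 0.921 ± 0.171 and 1.32 ± 0.172 (SD, n = 3). In CPM, cox8b was at 43.2, 74.6 and 56.4 in wild type against 73.9, 68.6 and 94.9 in runx1 null, and cox8a at 59.7, 74.8 and 54.2 in wild type against 52.1, 60.9 and 66.5 in runx1 null. Neither gene alone separated the genotypes.

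The c subunit forms the rotating ring of the ATP synthase and is made from several genes that encode the same mature protein in mammals. atp5mc1 over atp5mc3b was 0.419, 0.625 and 0.700 in wild type compared with 0.799, 0.795 and 0.956 in runx1 null. ATP5MC3 over atp5mc3b was 0.254, 0.330 and 0.336 in wild type against 0.482, 0.387 and 0.442 in runx1 null. Both ratios were higher in all runx1 null pools, and they share their denominator, so they are not independent. atp5mc1 was at 46.6, 99.1 and 129 CPM in wild type against 94.0, 114 and 206 in runx1 null, ATP5MC3 at 28.3 to 61.9 and 55.6 to 95.2, and atp5mc3b at 111 to 184 and 118 to 215. In the exact two-sided permutation test each of the 3 separated ratios had p = 0.1, the smallest that 3 pools against 3 can give, and 0.3 after Benjamini-Hochberg adjustment over the 9. So with 3 pools against 3 this test could not have taken any of these ratios past a threshold of 0.05.

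The other 6 ratios overlapped, with exact permutation p-values from 0.4 to 0.9 and an adjusted p of 0.9. In mammals COX4I2 is an isoform of lung and other tissues that is linked to low oxygen, and COX4I2 over COX4I1 was 0.121, 0.0515 and 0.0504 in wild type compared with 0.0735, 0.0897 and 0.118 in runx1 null. Its highest value was in wild type pool 1. COX4I2 itself was at 14.2, 8.85 and 7.65 CPM in wild type against 13.7, 12.6 and 24.6 in runx1 null, the largest estimate of complex IV (log2 fold change 0.73, SE 0.39). cox4i1l over COX4I1 ranged from 0.139 in runx1 null pool 1 to 0.385 in runx1 null pool 2.

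ndufa4b over NDUFA4 had the widest range of the 9 ratios, 7.22-fold. Structural work places NDUFA4 with complex IV, although its symbol counts it in complex I here. The ratio was 0.0571, 0.310 and 0.204 in wild type against 0.145, 0.412 and 0.300 in runx1 null. It was lowest in wild type pool 1, the pool with the fewest tubule and the most erythroid transcripts, and highest in runx1 null pool 2. ndufa4b was at 9.97, 51.1 and 30.3 CPM in wild type against 27.4, 66.2 and 61.4 in runx1 null (log2 fold change 0.76, SE 0.61), while NDUFA4 stayed between 149 and 205 CPM in all 6 pools. The tubule marker level ran from 487 CPM in wild type pool 1 to 4175 CPM in runx1 null pool 3. In runx1 null pool 2 it was 1962 CPM, below the 2379 CPM of runx1 null pool 1. The summed CPM of 9 muscle markers was lowest in wild type pool 1 (127) and highest in runx1 null pool 2 (936). The part of these tissues in the ratios was not tested. NDUFA4L2, a further paralog, was at 0.169 to 1.26 CPM.

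Among the remaining paralogs of complex IV, cox6a1 (ENSDARG00000022438) over COX6A1 (ENSDARG00000054588) ranged from 0.192 in wild type pool 1 to 0.618 in runx1 null pool 3. cox6a1 was at 21.1, 35.1 and 48.1 CPM in wild type compared with 18.5, 33.1 and 56.3 in runx1 null. cox6b1 over cox6b2 ranged from 0.316 to 0.749, with cox6b1 at 54.3 to 131 CPM and cox6b2 at 109.8 to 176. cox7a1, in mammals an isoform of heart and skeletal muscle, was at 25.2 to 39.1 CPM, COX7A2 at 25.5 to 45.7, and their ratio at 0.856 to 1.32. COX7A2L, which in mammals helps to join complexes III and IV in a supercomplex, was at 20.9 to 52.9 CPM.

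**Figure D4:**
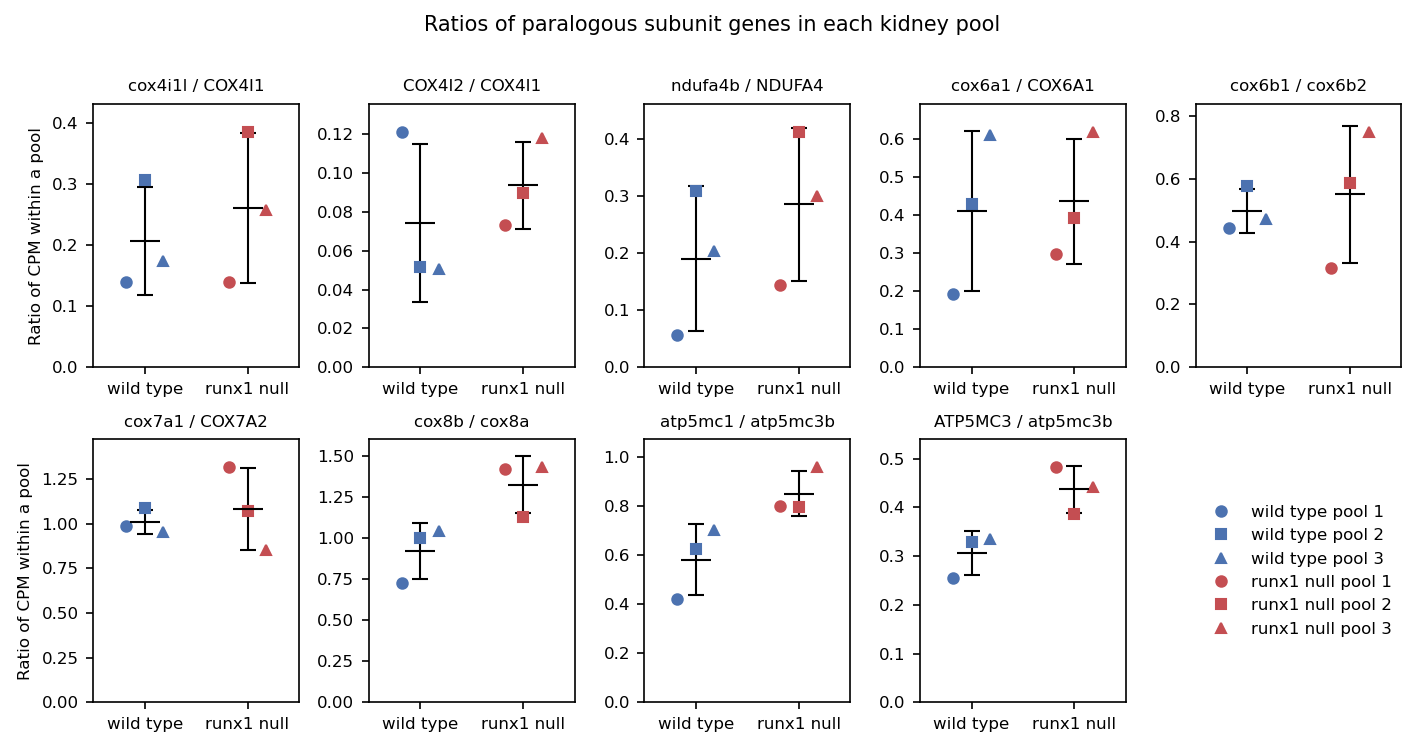
Ratio of CPM of paralogous subunit genes within each pool, for the 9 pairs; points are pools, horizontal bars are means and whiskers are 1 SD either way (n = 3). cox8b over cox8a, atp5mc1 over atp5mc3b and ATP5MC3 over atp5mc3b are higher in all runx1 null pools than in any wild type pool, and the other 6 overlap.

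The 13 subunits encoded in mitochondrial DNA followed another order of pools than the nuclear genes. Their summed CPM was 33960.0, 64159 and 45752 in wild type against 76280.1, 46587 and 66697 in runx1 null, highest in runx1 null pool 1, which was the lowest pool for the nuclear subunits. The mitochondrial sum was 5.51, 10.3 and 7.07 times the nuclear sum in wild type and 12.8, 7.01 and 7.47 times in runx1 null, with means of 7.62 ± 2.43 and 9.10 ± 3.23 (SD, n = 3) and overlapping groups. The estimate was higher in runx1 null for 13 of 13 genes, against 47.9% of all tested genes, with a median log2 fold change of 0.62. None passed the test (smallest adjusted p = 0.811), and the groups overlapped for all 13. The largest estimate was that of mt-atp8, an ATP synthase subunit, at 74.2, 189 and 157 CPM in wild type against 612, 151 and 249 in runx1 null (1.27, SE 0.59). The high value came from runx1 null pool 1. Wild type pool 1, with the highest erythroid and lowest tubule content, was the lowest pool for the sum. It was also the lowest for all 13 genes, against 36.6% of all tested genes. Runx1 null pool 1 was the highest for 12 of them, against 13.9%.

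The wider pathway was described by lists of other genes. Of 15 tested genes of pyruvate oxidation and the citric acid cycle, 14 had an estimate higher in runx1 null, with a median log2 fold change of 0.39 and 0 past the threshold. Runx1 null pool 3 was the highest for 13 of the 15, against 19.3% of all tested genes. Wild type pool 1 was the lowest for 12, against 36.6%. The summed CPM was 946, 1310 and 1392 in wild type against 1396, 1340 and 2108 in runx1 null. For 4 of the 15 all runx1 null pools lay above all wild type pools, against 6.24% of all tested genes. Among these 4 was citrate synthase, cs, at 167, 159 and 166 CPM in wild type compared with 174, 198 and 232 in runx1 null (0.29, SE 0.23). The succinyl-CoA ligase subunit suclg2 was low in wild type pool 1 and runx1 null pool 2, at 12.5, 68.1 and 56.8 CPM in wild type against 86.3, 17.7 and 104 in runx1 null.

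Of 11 tested electron and nucleotide carriers and ATP synthase inhibitors, 9 had a higher estimate in runx1 null (median 0.27) and 0 passed. Cytochrome c, the carrier between complexes III and IV, was measured as cycsb at 72.3, 124 and 109 CPM in wild type against 108, 152 and 314 in runx1 null (0.91, SE 0.45, adjusted p = 0.811), and cycsa had a count of 0 in all libraries. The outer membrane channel gene vdac2 was at 1112 CPM in wild type pool 1 and 297 to 433 elsewhere. Of 32 further assembly factors 20 had a higher estimate (median 0.08), of 12 regulators of mitochondrial biogenesis 6 did (median 0.01), and of 9 glycolytic genes 6 did (median 0.24), each with 0 past the threshold. Among the regulators, ppargc1b, a coactivator of mitochondrial genes, was at 12.0, 38.2 and 24.5 CPM in wild type compared with 42.7, 38.6 and 68.8 in runx1 null (1.01, SE 0.46), and tfb2m, a factor of mitochondrial transcription, at 11.8, 15.3 and 15.2 in wild type against 21.3, 17.1 and 28.2 in runx1 null (0.65, SE 0.28). Both were higher in all runx1 null pools, against 6.24% of all tested genes. The mitochondrial transcription genes tfb1m, at 6.12, 3.28 and 4.04 CPM in wild type against 3.05, 2.84 and 3.07 in runx1 null (-0.58, SE 0.37), and polrmt, at 15.3, 12.4 and 14.02 compared with 10.5, 12.3 and 12.1 (-0.26, SE 0.24), were lower in all runx1 null pools, also against 6.24%. None of the 4 passed.

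The tissue content of the pools varied within both genotypes. For the 18 tested tubule markers the median log2 fold change was 0.04, with 9 estimates higher and 9 lower in runx1 null, and 0 past the threshold. Their summed CPM was 487, 3205 and 1687 in wild type against 2379, 1962 and 4175 in runx1 null. Most of the last value came from the markers atp1a1a.4 (1776 CPM) and cdh17 (1193 CPM). By mean log2 CPM, runx1 null pool 2 lay below wild type pool 3, at 4.98 against 5.62, the reverse of their order by sum. The defining markers were present in every pool: lrp2a, the proximal tubule endocytic receptor, was at 47.4 to 199 CPM. Runx1 null pool 2 had low levels of the proximal markers slc13a1 (4.29 CPM, the lowest pool) and cubn (58.3 CPM, above wild type pool 1 alone), while the sodium pump subunit atp1a1a.4, at 868 CPM there, lay below wild type pool 2 (908 CPM) and runx1 null pool 3 (1776 CPM) and above the other pools. slc12a1, a salt transporter of the distal nephron, was at 11.1, 59.8 and 38.9 CPM in wild type compared with 87.3, 68.2 and 146 in runx1 null, without overlap.

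Of 14 tested erythroid markers, 13 had a lower estimate in runx1 null (median log2 fold change -0.40), with 0 past the threshold. Wild type pool 1 was the highest pool for 12 of the 14, against 30.4% of all tested genes. The summed CPM of wild type pools 2 and 3, 78387 and 83138, overlapped that of the runx1 null pools, at 65423, 80151 and 74295. Most of the erythroid sum came from hbaa1, at 89785 of 142686 CPM in wild type pool 1. hbaa1 was at 89785, 58007 and 63054 CPM in wild type against 43272, 54046 and 54069 in runx1 null (log2 fold change -0.48, SE 0.53). It was the 1 erythroid marker of the 14 that was lower in all runx1 null pools, against 6.24% of all tested genes. hbae1.1 had a count of 0 in all libraries. The heme synthesis enzyme alas2 was at 21816 CPM in wild type pool 1 and 5617 to 7011 in the other 5 pools. With the mean log2 CPM of the tubule markers as a covariate, 81 of the 100 subunit and assembly genes had an estimate above 0 (median 0.17), and 3 of all tested genes were called, none of them among the 100. With that of the erythroid markers as a covariate, 81 were above 0 (median 0.17) and 0 of the 100 were called. In these fits the median of all tested genes was 0.0213 and 0.0402, compared with -0.03 in the fit without a covariate, where 75 of the 100 were above 0 and their median was 0.19.

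Markers of other cell types and tissues also differed in level between pools. By edgeR 0 of them passed the threshold. DESeq2 called 2 of 6 tested thrombocyte, 2 of 6 neutrophil, 2 of 7 muscle, 1 of 6 B lymphocyte and 1 of 11 blood stem and progenitor markers. Over all genes it tested it called 0.561%. Of the 7 muscle markers 3 had a higher edgeR estimate and 4 a lower one (median -0.18). The muscle sum was 127, 667 and 546 CPM in wild type against 306, 936 and 402 in runx1 null. The B lymphocyte marker, rag1, was lower in runx1 null (log2 fold change -4.40 by DESeq2). Its counts were low, at 17, 85 and 58 in wild type against 1, 1 and 5 in runx1 null. Of the 6 tested B lymphocyte markers 5 had a lower edgeR estimate. The other, ighm, had a higher one (1.58), with 114 CPM in runx1 null pool 3. The stem and progenitor marker, gata2b, was higher (3.86), with low counts of 1, 5 and 5 in wild type against 27, 56 and 68 in runx1 null. Of the 11 markers of its list 6 had a higher edgeR estimate, against 47.9% of all tested genes, and 5 a lower one (median 0.08). Of 6 tested neutrophil markers 5 had a lower estimate in runx1 null (median log2 fold change -1.43), as did 6 of 6 thrombocyte markers (-0.85) and 10 of 10 oocyte markers (-2.42). The estimate was higher for 10 of 10 liver markers (1.85), 5 of 5 pancreas markers (4.05) and 6 of 6 markers of the interrenal gland (1.76), which in fish lies in the kidney and makes steroids. Single pools stood out in these lists. All 6 interrenal markers were highest in runx1 null pool 1. Their summed CPM was 6.36, 682 and 59.5 in wild type against 2468, 48.7 and 6.04 in runx1 null. All 10 oocyte markers were highest in wild type pool 3. Their summed CPM was 5.39, 192 and 932 in wild type against 3.53, 27.8 and 277 in runx1 null. The part of these tissues in the levels of the subunit genes was not tested.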

How the data were processed

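Bulk RNA was prepared with a TruSeq RNA kit that does not mark strand, and 6 libraries were sequenced, per the labels' protocols. The authors deposited 1 table of expected counts per library; STAR, RSEM and DESeq2 and the build GRCz10 are named in the submitters' processing notes, without their settings. Of the values above 0, 12.7% to 14.9% per library were fractional, and all counts were rounded before the test. Symbols came from a table that matched 26433 of 32266 identifiers; 6 of the 102 rows share a symbol with another row. Copies whose reads the counting could divide, such as paralogs, are uncertain, as are genes that overlap another on either strand.

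Genes were filtered with filterByExpr (minimum count 10), scaled by TMM and tested with edgeR 4.0.16 in R 4.3.3 (quasi-likelihood F test, all 6 libraries, no covariate), with adjustment over all 18864 tested genes and a threshold of 0.05. The standard error is the log2 fold change divided by the square root of F. Summed CPM includes genes that were not tested. A covariate is the markers' average log2 CPM (prior count 2). The steps were tested on simulated data.

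Named were, by rule, in each complex the gene of highest mean CPM and the 3 of smallest unadjusted p (2 in complex II), every gene past the threshold, and every gene of 7 paralog families; all other genes, those of the wider pathway and marker lists included, were named after their values were seen. The genes and lists were chosen with earlier results of these data known. Of 24 tubule markers 18 and of 19 erythroid markers 15 matched 1 identifier. Alternatives were DESeq2 1.42.0, limma 3.58.1 with voom, other scalings and filters, unrounded counts, marker covariates, a replicate block and leaving out libraries. Correlations of deviations of same-numbered pools were 0.0937, -0.364 and 0.456. The numbers were not taken to pair the pools, and whether such pools shared a preparation is not stated. Counting precision is limited by depth: 1 count equals 0.0304 to 0.0598 CPM.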

Additional observations from a re-analysis of the deposited data

How the results depend on the processing

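The count of subunit and assembly genes past the threshold was 0 under every alternative run. Of all tested genes, DESeq2 called 105 and the fit with the tubule covariate 3. The median log2 fold change of the tested genes was 0.01 to 0.29 when 1 library was left out, and 0.18 with the replicate block, which called 0 of the 100. With 1 library left out, a group of 2 pools is assumed to vary like the other. The median of complex I ran from -0.05 to 0.19, of II from 0.02 to 0.17, of III from 0.14 to 0.42, of IV from 0.04 to 0.44 and of V from -0.03 to 0.36. With wild type pool 1 and runx1 null pool 3 both left out, it was -0.0412 for complex IV and -0.0548 for complex V. That alternative, the newer quasi-likelihood method, library totals without TMM, and the unrounded or reduced paralog ratios were chosen after seeing the data. Library totals moved the median of all genes to 0.09 and that of the 100 to 0.29, with 89 above 0.

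For the named genes, 572 of 606 alternatives kept their direction and side of the threshold and 34 changed sign, in 14 of 32 genes; the cause was not tested. With voom and library weights the log2 fold change was -0.0526 for SDHA, -0.0145 for ATP5F1B, -0.0430 for cox4i1l, -0.39 for cox6a1 and -0.18 for atp5mc3b. For cox6a1 and atp5mc3b it was -0.13 and -0.0602 with the tubule covariate and -0.14 and -0.0640 with the erythroid covariate; cox6a1 was at -0.0148 with the replicate block, and cox8a at 0.0233 with library totals. With both libraries left out it was -0.0625 for SDHA, -0.0067 for COX4I1, -0.20 for ATP5F1B, -0.0441 for ATP5MC3, -0.0413 for COX7A2, -0.0036 for COX7A2L, -0.70 for cox6a1, -0.18 for cox6b1, -0.15 for atp5mc1 and -0.41 for atp5mc3b. With 1 library left out it ran from -0.0733 to 0.37 for ATP5F1B, -1.53 to 0.21 for NDUFA4L2, -0.0032 to 0.16 for SDHA, -0.00091 to 0.23 for SDHC, -0.21 to 0.25 for atp5mc3b, -0.43 to 0.36 for cox6a1, -0.0717 to 0.65 for cox6b1 and -0.17 to 0.0690 for cox8a. The log2 ratio of the runx1 null mean to the wild type mean ran from -0.0616 to 0.73 for cox4i1l over COX4I1, -0.26 to 0.49 for cox6a1 over COX6A1, -0.14 to 0.42 for cox6b1 over cox6b2 and -0.0692 to 0.24 for cox7a1 over COX7A2.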
